A study of Homo sapiens with 21 samples.

Results

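Cells with low ARID1B transcript were set directly against cells with low ARID1A transcript in SK-N-BE(2), an established human neuroblastoma cell line with MYCN amplification, by comparing the 6 RNA-Seq libraries labelled shARID1A/B with the 6 labelled shARID1B, out of 21 libraries in the series. Each group holds 2 conditions with 3 libraries each, which are the shRNA combinations shARID1A/B.2.3 and shARID1A/B.4.2 on one side and the single shRNAs shARID1B.2 and shARID1B.3 on the other. All cells, the control included, carried lentiviral shRNA and were collected after 72 h, and the labels describe the triplicates as biological. The members were chosen by their labels alone. No library of the non-silencing control, and none labelled shARID1A, entered a test, and control levels are given only as a reference. As the transcripts of the silenced genes went against the labels, groups are called by their label throughout.

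ARID1A and ARID1B are mutually exclusive, paralogous subunits of the BAF form of the mSWI/SNF chromatin remodeller, in which either of them holds the core module together and connects it to the ATPase module. The complex slides and ejects nucleosomes at enhancers and promoters. Cells that lose the activity of either paralogue usually depend on the other, and in neuroblastoma both genes are recurrently altered.

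The libraries labelled shARID1A/B were low in ARID1B and not in ARID1A, and the libraries labelled shARID1B were low in ARID1A and not in ARID1B. The normalised read count of ARID1A (ENSG00000117713.20, GRCh38 chr1:26693236-26782110), that is, its reads divided by the size factor of the library, was 5510.3, 5752 and 5714 in shARID1A/B.2.3, 5589, 5352 and 5379 in shARID1A/B.4.2, 1962, 1882 and 1916 in shARID1B.2, and 2507, 2479.9 and 2449.7 in shARID1B.3. The 3 control libraries averaged 6312, so that ARID1A stayed near the control level in the libraries labelled shARID1A/B and was below it in all 6 labelled shARID1B. ARID1B (ENSG00000049618.24, chr6:156776020-157210779) showed the opposite, with 2540.5, 2651 and 2607 in shARID1A/B.2.3, 1886, 1881 and 1955 in shARID1A/B.4.2, 5056, 4913 and 5043 in shARID1B.2, and 6182, 6038 and 6053 in shARID1B.3, and 5796 in the control. The groups did not overlap for either gene. The log2 difference, always given here as shARID1A/B minus shARID1B with its standard error, was 1.35 ± 0.09 for ARID1A (limma adjusted p = 1.47e-06) and -1.31 ± 0.12 for ARID1B (adjusted p = 1.34e-05). Both calls were also made when the condition was a random block (adjusted p = 0.000658 and 0.00143). A higher value in the libraries labelled shARID1A/B is therefore a higher value with low ARID1B and high ARID1A transcript.

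**Figure D1:**
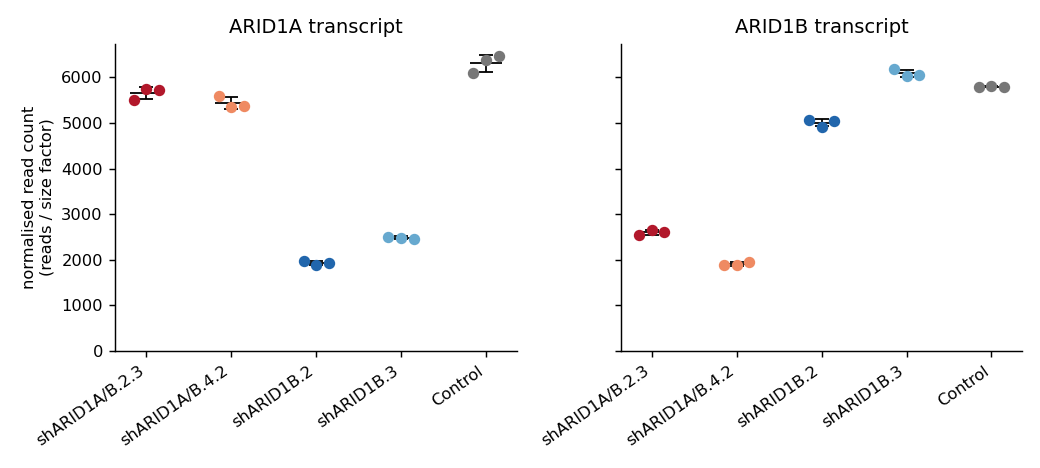
Normalised read count (reads divided by the size factor of the library) of the ARID1A and ARID1B transcripts in each library, by condition. Points are libraries, and bars are the mean and SD of 3 libraries. ARID1A is low in the 6 libraries labelled shARID1B, and ARID1B is low in the 6 labelled shARID1A/B.

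The 12 libraries held 27954334 to 41077638 reads on genes. The main component (42% of the variance) set shARID1A/B.2.3 apart from shARID1A/B.4.2, with both shARID1B conditions between them. The second (32%) separated the groups, with all 6 libraries labelled shARID1A/B below 0 and all 6 labelled shARID1B above 0, but shARID1B.2 was nearer to both shARID1A/B conditions than to shARID1B.3. The third (21%) set shARID1B.2 apart. Of 16999 genes tested, 13278 differed between the 2 conditions labelled shARID1A/B and 11923 between the 2 labelled shARID1B at an adjusted p under 0.05 (limma), with a median absolute log2 difference of 0.48 and 0.36. Single conditions of different groups differed by a median of 0.34 to 0.45, a range that holds the value within shARID1B and lies below the one within shARID1A/B. Results were therefore also read in the 4 pairings of either shARID1A/B condition against either shARID1B condition. Mitochondrial genes took 7.02 to 7.95% of the reads in the libraries labelled shARID1A/B and 6.66 to 7.22% in those labelled shARID1B.

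**Figure D2:**
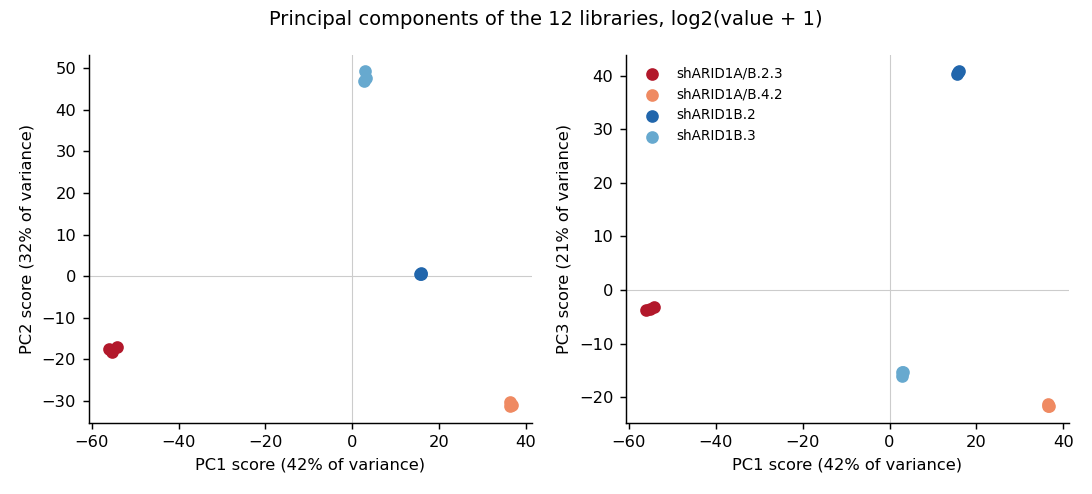
Scores of the 12 libraries on principal components 1 to 3 of log2(value + 1), with the share of variance on each axis. Each point is a library, coloured by condition. The 3 libraries of a condition lie together. PC1 (42%) splits the conditions labelled shARID1A/B, and PC2 (32%) has the groups on either side of 0.

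At an adjusted p under 0.05, 2144 genes were higher (12.6% of those tested) and 2191 lower (12.9%) in the libraries labelled shARID1A/B. At 2-fold or more there were 475 higher (2.79%) and 441 lower (2.59%). Ranges below are given as lowest to highest of 6 libraries labelled shARID1A/B against 6 labelled shARID1B. A stricter count took the genes called the same way in all 4 pairings, which gave 1461 higher (8.59%) and 1575 lower (9.27%), of which 332 (1.95%) and 314 (1.85%) differed by 2-fold or more. With the deposited scaling the counts were therefore nearly even in both directions. Scaled to total reads there were 2385 higher and 1913 lower, and 1671 and 1325 in all 4 pairings. With upper-quartile scaling there were 2408 higher and 1946 lower. The median log2 difference over all genes was -0.0043, which size factors tend to hold near 0. A fit with the condition as a random block lets the libraries of a condition correlate, at 1 value for all genes (0.94). It does not take the spread between conditions from each gene itself. A call with it therefore does not show that a difference exceeds the spread between shRNAs. In this fit 100 genes were higher and 159 lower. All 259 were among those called in all 4 pairings. Of 172 genes chosen for naming, 162 were called between the groups and 32 of them also with the random block.

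KIF3B, a motor subunit of kinesin-2, and COLGALT2, which adds galactose to collagen, were among the 12 largest rises that passed in all 4 pairings with no overlap between the groups. KIF3B (chr20:32277664-32335011) read 6109.7, 6024 and 6154 in shARID1A/B.2.3, 3295, 3123 and 3247 in shARID1A/B.4.2, 1269, 1129 and 1129 in shARID1B.2, and 938, 868 and 897 in shARID1B.3, with a control mean of 3336. All 6 libraries labelled shARID1A/B were above all 6 labelled shARID1B, with a log2 difference of 2.11 ± 0.21 (adjusted p = 2.8e-05, and 0.00143 with the condition as a random block). COLGALT2 had 518 to 938 with a median of 714 against 139 to 176 with a median of 153 (2.17 ± 0.18, random block adjusted p = 0.00771), with a control mean of 159. EPAS1, which encodes the hypoxia-inducible factor HIF-2α and is active in sympathoadrenal cells, read 375, 436 and 390.2 in shARID1A/B.2.3, 1028, 913 and 1034 in shARID1A/B.4.2, 91, 92.6 and 78.2 in shARID1B.2, and 186, 202 and 161 in shARID1B.3. It was highest in shARID1A/B.4.2, and its difference was 2.31 ± 0.35 (random block adjusted p = 0.0384). RASSF4, a Ras association domain protein, had 239 to 380.3 with a median of 302 against 33.9 to 107 with a median of 65.2 (2.31 ± 0.31, 0.0338).

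The other 8 of these rises were called in all 4 pairings but not with the random block, where their adjusted p was 0.117 to 0.511. HRK, a BH3-only activator of apoptosis, had 464 to 865 with a median of 596 against 88.9 to 156 with a median of 101, a log2 difference of 2.46 ± 0.20. LRRC32, which tethers latent TGF-β at the cell surface, had 113 to 230.3 with a median of 161 against 22.8 to 38.2 with a median of 29 (2.37 ± 0.20). The voltage-gated potassium channel KCNH6 had 122 to 163 with a median of 142 against 17.5 to 42.3 with a median of 26.9 (2.33 ± 0.19). NFAM1, an immune receptor with a signalling motif, had the largest log2 difference of the rises (2.61 ± 0.55), and this rested mostly on 1 condition. Its values were 65.8, 51.1 and 61.3 in shARID1A/B.2.3, 355, 385 and 377 in shARID1A/B.4.2, 26.3, 17.4 and 17.8 in shARID1B.2, and 26.9, 26.6 and 28.5 in shARID1B.3. The remaining 4 were the unitary pseudogene FER1L4 (2.15), the imprinted retrotransposon-derived gene RTL1 (2.11), the phospholipase C gene PLCH2 (2.06) and the lysosomal transporter gene SLC46A3 (2.03).

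Among the 12 largest falls, NUCKS1, MTPN and DIPK2A were also called with the random block (adjusted p = 0.00185, 0.00185 and 0.0383). NUCKS1, an abundant nuclear DNA-binding protein, read 5810.0, 5703 and 5616 in shARID1A/B.2.3, 13664, 13531 and 13454 in shARID1A/B.4.2, 37567, 36295 and 36771 in shARID1B.2, and 28387, 29199 and 29726 in shARID1B.3, with a control mean of 33932. The shARID1B conditions were on either side of the control and both shARID1A/B conditions were well below it, with a log2 difference of -1.90 ± 0.26. MTPN, which encodes the ankyrin-repeat protein myotrophin and shares a transcript with LUZP6, had 1661 to 4267 with a median of 2965 against 9339 to 14178 with a median of 11923 (-2.11 ± 0.28). DIPK2A had 44.8 to 96.6 with a median of 69.1 against 226 to 376 with a median of 279 (-2.09 ± 0.25). The protein kinase C isoform gene PRKCH had 17 to 41.8 with a median of 34.9 against 110.5 to 214 with a median of 148 (-2.37 ± 0.25), and ATP1B2, a β-subunit of the sodium-potassium pump, had 47.8 to 72.9 with a median of 54.4 against 183 to 239 with a median of 218 (-1.92 ± 0.13). LINC01521 was the steadiest of the 24, with 56.4 to 72 with a median of 65.8 against 231 to 269 with a median of 256 (-1.94 ± 0.10) and pairings between -1.92 and -1.96.

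In others, 1 condition carried the fall. HNRNPA1, an RNA-binding splicing regulator with many processed pseudogene copies between which reads could be split, read 7118, 7027 and 7217 in shARID1A/B.2.3, 77234, 75378 and 73121 in shARID1A/B.4.2, 110619, 107175 and 108417 in shARID1B.2, and 82896, 80845 and 85442 in shARID1B.3. Of the 4 conditions, shARID1A/B.2.3 was lowest, and the difference of -2.04 ± 0.69 (adjusted p = 0.0467) lost its call when any single library of shARID1A/B.2.3, shARID1B.2 or shARID1B.3 was left out (adjusted p up to 0.0952). COL1A1 followed the other combination, with 7193, 7779.6 and 7592 in shARID1A/B.2.3, 742, 902 and 835 in shARID1A/B.4.2, 12194, 13319 and 12821 in shARID1B.2, and 9862, 10679.7 and 9642 in shARID1B.3. Its difference of -2.19 ± 0.65 (adjusted p = 0.0261) was not called without replicate 2 or replicate 3 of shARID1A/B.4.2 (adjusted p up to 0.052). The calcium sensor gene SCGN had 70.9, 72.9 and 93.4 in shARID1A/B.2.3, 18.2, 13.1 and 10.3 in shARID1A/B.4.2, 148, 140.1 and 155 in shARID1B.2, and 169, 184 and 190.0 in shARID1B.3, and was again lowest in shARID1A/B.4.2. CYP1B1, a cytochrome P450 (-1.92), and the antisense genes ROR1-AS1 (-2.67) and TMPO-AS1 (-1.90) complete the falls. The kit keeps the strand of the RNA, but whether the counting used it is not given in the sources used here, so the antisense values are uncertain.

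**Figure D3:**
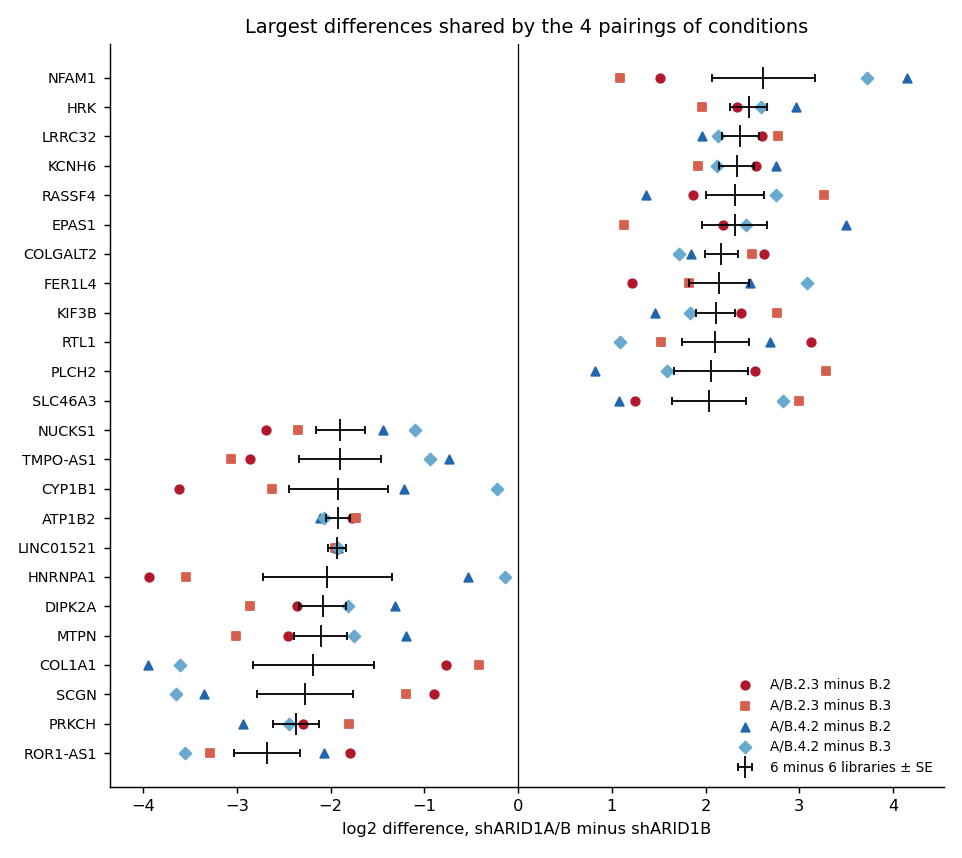
Log2 difference (shARID1A/B minus shARID1B) of the 12 largest rises and 12 largest falls. Symbols are the 4 pairings of conditions, and black bars are the difference between 6 and 6 libraries with its SE. The pairings of LINC01521 nearly coincide, whereas those of HNRNPA1, COL1A1 and NFAM1 split by shARID1A/B condition.

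The libraries labelled shARID1A/B had lower transcript levels of the DNA replication and mitosis machinery than those labelled shARID1B. Of 39 genes for licensing, fork and nucleotide synthesis, 28 were lower and 0 higher at an adjusted p under 0.05, 20 were lower in all 4 pairings, and 11 were called with the random block. The lower share, 71.8%, stands against 12.9% of all genes tested. For the other lists, too, the shares of members stand beside the counts and in their order, to be read against 12.6% higher and 12.9% lower over all genes, followed by the number called with the random block. The median log2 difference was -0.65, against -0.0043 over all genes tested. In the pairings it was -0.65 and -1.05 for shARID1A/B.2.3 against shARID1B.2 and shARID1B.3, and -0.24 and -0.75 for shARID1A/B.4.2 against the same. Of 40 mitotic genes, 36 were lower (90%) and 0 higher, 32 in all 4 pairings and 10 with the random block, with a median of -0.66 and -0.71, -1.02, -0.34 and -0.58 in the pairings in the same order. All 39 and all 40 differences were negative. Of 20 homologous recombination and checkpoint genes, 11 were lower and 0 higher (55% and 0%, 10 in all 4 pairings and 1 with the random block), with a median of -0.62.

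The medians of the lists also differed within the groups. The log2 difference of shARID1A/B.2.3 minus shARID1A/B.4.2 had a median of -0.40 over the replication genes and -0.45 over the mitotic genes, and that of shARID1B.2 minus shARID1B.3 had -0.43 and -0.33. Both groups lay below the control. Their median log2 distance from the control was -1.01 (shARID1A/B) and -0.39 (shARID1B) for replication, and -0.98 and -0.32 for mitosis. The control was above both groups for 36 of 39 replication genes and 39 of 40 mitotic genes. In bulk libraries, fewer cycling cells and less transcript per cell cannot be told apart.

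TYMS, which makes thymidylate for DNA synthesis, had the largest fall of the replication genes. It read 751, 705 and 668 in shARID1A/B.2.3, 1067, 1036 and 938 in shARID1A/B.4.2, 2031, 2106 and 2043 in shARID1B.2, and 2751, 2776 and 2858 in shARID1B.3, with a control mean of 3393. The 4 conditions kept the same order as the list, and the difference was -1.50 ± 0.15 (adjusted p = 2.84e-05, random block 0.0122). The clamp loader subunit gene RFC3 had 624 to 1258 with a median of 926 against 2049 to 2754 with a median of 2435 (-1.43 ± 0.19). DNA ligase LIG1 (-1.25), the helicase subunits MCM2 (-1.19), MCM3 (-0.99) and MCM6 (-0.85), the loading factor CDC6 (-1.14) and its partner CDT1 (-0.88) were each lower in all 4 pairings. The ribonucleotide reductase subunits RRM1 (-0.16) and RRM2 (-0.09) and the clamp PCNA (-0.54, adjusted p = 0.108) did not pass the test.

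Of the mitotic genes, ASPM, which organises spindle poles, had 3950.0, 3993 and 4015 in shARID1A/B.2.3, 3410.5, 3243 and 3359.5 in shARID1A/B.4.2, 7350.1, 6674 and 7163 in shARID1B.2, and 8571, 8449 and 8503 in shARID1B.3, a difference of -1.09 ± 0.09 (random block adjusted p = 0.00674). Securin, encoded by PTTG1, had 789 to 1765 with a median of 1240.2 against 2210.0 to 3098 with a median of 2622 (-1.15 ± 0.23), and BIRC5, the survivin subunit of the chromosomal passenger complex, 1659.9 to 3182 with a median of 2382 against 4477 to 4924 with a median of 4779 (-1.04 ± 0.16, random block adjusted p = 0.0526). The kinetochore gene NDC80 (-1.01), the centromeric histone gene CENPA (-0.90), the checkpoint kinase genes TTK (-0.96) and BUB1 (-0.92), CDK1 (-0.88) and the proliferation marker MKI67 (-0.84) were lower in all 4 pairings. PLK1 (-0.43), AURKA (-0.13), CDCA8 (-0.15) and BUB1B (-0.05) did not pass. Among the repair genes the helicase BLM was the steadiest, with 752 to 814 with a median of 779.7 against 1399.6 to 1548 with a median of 1442 (-0.89 ± 0.06), next to FANCD2 (-0.91) and BRCA2 (-0.88), whereas ATM (-0.06), ATR (-0.08) and CHEK1 (-0.07) did not pass.

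Genes of both programmes carry known short elements near their starts. The cell cycle homology region (CHR, searched as TTTGAA) is bound by the DREAM and MuvB complexes in genes expressed in G2 and M, often beside CCAAT boxes, and E2F sites (searched as TTTCCCGC, TTTGGCGC, TTTGCCGC or TTTCGCGC) lie in genes of G1 and S. The 150 bases before the start annotated by RefSeq (GRCh38.p14) are shown for the 2 members of each list with the largest falls in all 4 pairings that hold the element there. Capitals mark the element and any CCAAT box, on either strand, and lines read 5′ to 3′ along the gene.
ASPM (chr1:197146670-197146819, minus strand): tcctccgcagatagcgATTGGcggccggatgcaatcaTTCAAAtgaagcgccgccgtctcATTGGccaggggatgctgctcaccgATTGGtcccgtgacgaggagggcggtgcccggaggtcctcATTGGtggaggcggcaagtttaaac
CENPA (chr2:26785906-26786055, plus strand): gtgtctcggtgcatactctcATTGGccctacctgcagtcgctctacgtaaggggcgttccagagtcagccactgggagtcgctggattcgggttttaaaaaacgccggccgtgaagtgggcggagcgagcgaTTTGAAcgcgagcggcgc
TYMS (chr18:657503-657652, plus strand): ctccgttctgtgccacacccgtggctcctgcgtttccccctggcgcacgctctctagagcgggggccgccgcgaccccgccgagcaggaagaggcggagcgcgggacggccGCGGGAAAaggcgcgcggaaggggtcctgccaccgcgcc
RFC3 (chr13:33817999-33818148, plus strand): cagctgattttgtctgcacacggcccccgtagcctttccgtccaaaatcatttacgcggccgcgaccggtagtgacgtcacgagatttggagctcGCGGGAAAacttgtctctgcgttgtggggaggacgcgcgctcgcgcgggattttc

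The CHR letters begin 113 bases before the start in ASPM, which has 4 CCAAT boxes in the window, and 18 bases before it in CENPA, which has 1. The E2F letters begin 39 bases before the start in TYMS and 55 in RFC3. Over the 8163 tested genes with a single RefSeq promoter of 300 bases (250 before to 50 after the start), the CHR letters were in 9.49% and the E2F letters in 5.32%. In the mitotic list they were in 22 and 2 of 29 promoters (75.9% and 6.9%), and in the replication list in 1 and 16 of 26 (3.85% and 61.5%). Among genes lower in all 4 pairings the shares were 16.1% and 9.94% of 875 promoters, and among genes higher in all 4 pairings 8.03% and 4.02% of 772. The CCAAT box was in 37.4% of all, 44.8% of the lower and 36.5% of the higher promoters. The AP-1 site TGAGTCA was in 2.87%, 1.83% and 3.76%, the cyclic AMP response element TGACGTCA in 3.61%, 4.91% and 4.02%, and the E-box CACGTG in 10.3%, 10.4% and 9.97%. At 2-fold or more in all 4 pairings, 146 lower and 153 higher promoters remained. There the CHR letters were in 15.1% and 9.80%, and the E2F letters in 12.3% and 0.654%. The CCAAT box was in 41.1% and 38.6%, and the AP-1 site in 3.42% and 7.84% (5 and 12 promoters). The cyclic AMP response element was in 3.42% and 3.92%, and the E-box in 12.3% and 5.88%. Both strands were searched. These shares are descriptions, and a match of letters is not a bound site.

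Regulators of the cycle moved less uniformly. Of 11 G1 cyclins, kinases and RB proteins, 4 were lower and 0 higher (36.4% and 0%, 1 with the random block, median -0.34, -0.45 to -0.16 in the pairings), led by CDK2, the kinase of S-phase entry, with 752 to 1567 with a median of 1146 against 1975 to 2652 with a median of 2307 (-1.08 ± 0.21, random block adjusted p = 0.0463). The phosphatase gene CDC25A was also lower in all 4 pairings (-0.35). The activators E2F1 (-0.60) and E2F2 (-0.99) and the late repressor E2F8 (-1.13) were lower in all 4 pairings, and of the 10 E2F and DP genes 3 were lower and 2 higher (30% and 20%, 0 with the random block, median -0.21, -0.40 to 0.08 in the pairings). Of 7 CDK inhibitors, CDKN2B was higher at a low level, with 22.4 to 55.6 with a median of 35.3 against 10.4 to 19.9 with a median of 15.2, which is 2.39-fold. CDKN2C was lower, with 959 to 1468 with a median of 1228 against 1565 to 2686 with a median of 2097 (-0.76 ± 0.19). CDKN1B (-0.20, adjusted p = 0.0472) was not called in all 4 pairings or with the random block, and its call was lost without any 1 library except shARID1A/B.4.2 replicates 2 and 3 and shARID1B.2 replicate 1 (adjusted p up to 0.0983). Over the list 1 was higher and 2 lower (14.3% and 28.6%, 0 with the random block, median 0.32, -0.11 to 0.13 in the pairings). Of 22 replication-dependent histone genes, 3 were higher and 0 lower (13.6% and 0%, 0 with the random block). However, the list median of 0.18 ranged from -0.73 to 1.13 between pairings. It was below 0 in 2 count tests by edgeR and 1 by DESeq2, and -0.16 without shARID1B.3 replicate 3. Histone mRNAs mostly lack a poly(A) tail, near-identical copies share reads, and the libraries were made from polyadenylated RNA. In the MYC network, MYC itself was higher at a low level in these MYCN-amplified cells, with 30.1 to 72.9 with a median of 46.2 against 15.5 to 24.3 with a median of 19.5 (1.17 ± 0.25). Its partner MAX was higher (0.49) and the nucleolar chaperone NPM1 lower (-0.74), with 3 higher and 3 lower of 18 (16.7% and 16.7%, 0 with the random block, median 0.11, -0.28 to 0.47 in the pairings).

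Of the 26 mSWI/SNF genes other than ARID1A and ARID1B, 4 were higher and 5 lower (15.4% and 19.2%), near the 12.6% and 12.9% of all genes. Each of them was called in all 4 pairings. With the silenced genes included, 5 of 28 were called with the random block and the list median was -0.07. BCL7A, an accessory subunit of the ATPase module, was higher with 5575, 5601 and 5531 in shARID1A/B.2.3, 4504, 4496 and 4358 in shARID1A/B.4.2, 3194, 3195 and 3194 in shARID1B.2, and 2511, 2393 and 2546 in shARID1B.3 (0.82 ± 0.11, random block adjusted p = 0.0232), and its paralogue BCL7B was lower with 567 to 705 with a median of 637 against 1069 to 1315 with a median of 1174 (-0.88 ± 0.09). SS18, the subunit fused in synovial sarcoma, was lower, with 838, 791 and 836 in shARID1A/B.2.3, 1094, 1107 and 1107 in shARID1A/B.4.2, 1892, 1789 and 1795 in shARID1B.2, and 2098, 2262 and 2249 in shARID1B.3 (-1.07 ± 0.11, random block adjusted p = 0.0214). The control mean of SS18 was 1213, between the groups. DPF3, the PHD-finger subunit linked to neuronal and muscle BAF, was higher, with 301 to 484 with a median of 395 against 160.3 to 246 with a median of 205 (0.94 ± 0.17), and the core subunit SMARCE1 was lower (-0.67). DPF2, the ubiquitous paralogue of DPF3, read 3549, 3789 and 3835 in shARID1A/B.2.3, 1579.5, 1611 and 1526 in shARID1A/B.4.2, 2859, 2879 and 2916 in shARID1B.2, and 3304, 3549.8 and 3502 in shARID1B.3 and did not pass (adjusted p = 0.308), as its difference was positive in both pairings of shARID1A/B.2.3 and negative in both of shARID1A/B.4.2. Of 28 polycomb and trithorax genes, 2 were higher and 5 lower (7.14% and 17.9%, 0 with the random block, median -0.09, -0.09 to -0.03 in the pairings), among them CBX6 (0.99) and PHF19 (-0.51).

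Neuroendocrine genes differed in both directions. Neuroblastoma cells derive from the sympathoadrenal lineage, which stores catecholamines in dense-core granules. Of 16 catecholamine and granule genes 5 were higher and 2 lower (31.2% and 12.5%, 2 with the random block, median 0.46, 0.18 to 0.54 in the pairings). Chromogranin A, the main granule matrix protein, read 23392, 21169 and 22582 in shARID1A/B.2.3, 35542, 30407 and 34217 in shARID1A/B.4.2, 12305, 10912 and 12302 in shARID1B.2, and 10553, 7086 and 8816 in shARID1B.3 (1.43 ± 0.17, random block adjusted p = 0.19). The vesicular monoamine transporter SLC18A1 had 959.9, 1068 and 1009 in shARID1A/B.2.3, 332, 298 and 335 in shARID1A/B.4.2, 116, 92.6 and 101 in shARID1B.2, and 202, 186 and 209.8 in shARID1B.3 (1.99 ± 0.39), highest in shARID1A/B.2.3, and the prohormone convertase PCSK1 had 338 to 443 with a median of 416 against 111 to 196 with a median of 142 (1.44 ± 0.14). CPE, the carboxypeptidase that finishes prohormone processing after PCSK1, went the other way with 1503, 1373 and 1373 in shARID1A/B.2.3, 1217, 1187 and 1212 in shARID1A/B.4.2, 3156, 3046 and 3071 in shARID1B.2, and 3959, 3675 and 3844 in shARID1B.3 (-1.40 ± 0.09, random block adjusted p = 0.00296), as did the granule protein gene SCG3 (-0.84 ± 0.12, 0.0349). TH, the rate-limiting enzyme of catecholamine synthesis, read 2047, 2025 and 2141 in shARID1A/B.2.3, 618, 711 and 686 in shARID1A/B.4.2, 531, 581 and 638 in shARID1B.2, and 612, 509 and 427 in shARID1B.3, and its call (adjusted p = 0.031) was lost without any 1 library of shARID1A/B.2.3, without shARID1B.2 replicate 1, or without shARID1B.3 replicate 2 or 3 (adjusted p up to 0.0659).

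Of 24 synaptic vesicle genes 6 were higher and 3 lower (25% and 12.5%, 2 with the random block, median 0.17, 0.12 to 0.29 in the pairings). The GTPase gene RAB3C had 2814, 2776 and 2831 in shARID1A/B.2.3, 1884, 1657 and 1829 in shARID1A/B.4.2, 776, 733 and 778 in shARID1B.2, and 1092, 1059 and 1177 in shARID1B.3 (1.28 ± 0.18, random block adjusted p = 0.0329), and STX1A (0.76) and RAB3A (0.72) were higher as well. The calcium sensor SYT1 was lower with 3214, 3232 and 3277 in shARID1A/B.2.3, 1465, 1363 and 1463 in shARID1A/B.4.2, 5267, 5062 and 5250.0 in shARID1B.2, and 4675, 4821 and 4777 in shARID1B.3 (-1.21 ± 0.24, random block adjusted p = 0.0312). Synaptoporin (SYNPR) was near 0 in the libraries labelled shARID1A/B, with 1.01, 0 and 0.97 in shARID1A/B.2.3, 1.82, 1.54 and 0.94 in shARID1A/B.4.2, 52.5, 48.6 and 49.8 in shARID1B.2, and 30.9, 34.2 and 29.4 in shARID1B.3, and no fold is given because these values are at 2 reads or fewer. Of 38 voltage-gated and potassium channel genes 6 were higher and 5 lower (15.8% and 13.2%, 0 with the random block, median -0.04, -0.22 to 0.30 in the pairings), among them KCNH6, the background channel KCNK3 (1.04) and the sodium channel SCN2A (1.99-fold) on the higher side and KCNA2 (-1.14) on the lower. Of 23 ligand-gated receptor genes 2 were higher and 2 lower (8.7% and 8.7%, 0 with the random block, median 0.11, -0.19 to 0.55 in the pairings). The nicotinic subunit CHRNB4 was higher, with 1703 to 1830.0 with a median of 1720.0 against 512 to 1290.3 with a median of 902 (1.05 ± 0.22). Its relative CHRNA7 was also higher, with 982 to 1642 with a median of 1326 against 501 to 894 with a median of 673 (0.99 ± 0.20), whereas the GABA receptor gene GABRQ (-1.04) and the AMPA receptor gene GRIA3 (-0.64) were lower.

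Axon guidance genes had 7 higher and 3 lower of 47 (14.9% and 6.38%, 2 with the random block, median 0.25, 0.01 to 0.37 in the pairings). The ephrin ligand EFNB1 had 2111, 2077 and 2186 in shARID1A/B.2.3, 1545, 1696 and 1603 in shARID1A/B.4.2, 958, 1000.2 and 1010.2 in shARID1B.2, and 666, 649.9 and 587 in shARID1B.3 (1.22 ± 0.16, random block adjusted p = 0.0347) and another ephrin, EFNA5, was lower with 655 to 775 with a median of 717 against 1189 to 1312 with a median of 1239 (-0.80 ± 0.07, 0.0402). The semaphorin and VEGF co-receptor NRP1 was called higher (1.38 ± 0.35), with 1469, 1522 and 1541 in shARID1A/B.2.3, 4776, 4987 and 4979.8 in shARID1A/B.4.2, 1135, 1139 and 1095 in shARID1B.2, and 851, 1118 and 971 in shARID1B.3, and was highest in shARID1A/B.4.2. The netrin receptor UNC5A was higher (1.14), and SEMA5A (-1.19) and ROBO3 (-0.67) were lower. Of 26 receptor tyrosine kinase and neurotrophin receptor genes 2 were higher and 3 lower (7.69% and 11.5%, 1 with the random block, median 0.24, -0.34 to 0.35 in the pairings). RET, the GDNF receptor, was higher with 18268, 18108 and 17884 in shARID1A/B.2.3, 10759, 11058 and 10921 in shARID1A/B.4.2, 5102, 4949 and 5138 in shARID1B.2, and 9427, 9569 and 9181 in shARID1B.3 (1.03 ± 0.24, random block adjusted p = 0.0383), although the control mean of 30665 was above both groups. AXL, a kinase of mesenchymal and migratory cells, was lower with 221, 204 and 214 in shARID1A/B.2.3, 61, 55.6 and 50.6 in shARID1A/B.4.2, 319, 353 and 353 in shARID1B.2, and 472, 464 and 448 in shARID1B.3 (-1.85 ± 0.40). LTK (0.57) was higher, and NTRK2 (-0.94) and the collagen receptor DDR2 (-0.54) were lower.

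Neuroblastoma cells take an adrenergic or a mesenchymal state, each held by its own transcription factors. Of 20 mesenchymal-state factors 6 were lower and 1 higher (30% and 5%, 2 with the random block, median -0.14, -0.21 to -0.02 in the pairings). Only 3 were lower and 0 higher in all 4 pairings. The factor TWIST1, which represses epithelial genes, had 1705, 1443 and 1528 in shARID1A/B.2.3, 1139.5, 1108 and 1091 in shARID1A/B.4.2, 3343, 3459 and 3583 in shARID1B.2, and 3609.7, 3144 and 3418 in shARID1B.3 (-1.38 ± 0.11, random block adjusted p = 0.0252), the Notch co-activator MAML2 had 916 to 1302 with a median of 1084 against 1923 to 3634 with a median of 2727 (-1.29 ± 0.20, 0.0157), and ZEB2 had 875 to 1099 with a median of 989 against 1532 to 1795 with a median of 1725 (-0.78 ± 0.08, 0.131). Of 15 adrenergic factors 2 were higher and 3 lower (13.3% and 20%, 0 with the random block, median 0.06, -0.08 to 0.11 in the pairings). KLF7 was higher (0.54 ± 0.14), and MEIS2 (-0.58 ± 0.06), ISL1 (-0.52 ± 0.11) and GATA3 (-0.32 ± 0.07) were lower in all 4 pairings. All 12 neuroblastoma markers were expressed in the 12 libraries, MYCN at 77312 to 221301, and 2 were higher and 2 lower (16.7% and 16.7%, 0 with the random block, median 0.14, -0.20 to 0.44 in the pairings).

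Of 30 collagen chain genes 2 were higher and 4 lower (6.67% and 13.3%, 2 with the random block, median 0.14, -0.38 to 0.41 in the pairings), and the 4 lower genes were lower in all 4 pairings. COL4A2, a chain of the basement membrane network, read 9357, 9559 and 9193 in shARID1A/B.2.3, 4261, 4737 and 4582 in shARID1A/B.4.2, 17288, 18350.1 and 17804 in shARID1B.2, and 12785, 12873 and 12304 in shARID1B.3 (-1.21 ± 0.24, random block adjusted p = 0.0345), and its partner COL4A1, which lies head to head with it on chromosome 13, was also lower (-0.76). COL9A1 was lower at a low level, with 2.81 to 8.5 with a median of 4.47 against 13.3 to 56 with a median of 32.9, and COL1A1 is described above. LAMA4, a laminin chain of vascular and nerve basement membranes, was higher with 609.6, 550.2 and 609 in shARID1A/B.2.3, 982, 1038 and 1035 in shARID1A/B.4.2, 217, 188 and 223 in shARID1B.2, and 217, 216 and 231 in shARID1B.3 (1.85 ± 0.18, random block adjusted p = 0.019), as the only call among 8 laminin genes (12.5% and 0%, 1 with the random block, median -0.04, -0.27 to 0.16 in the pairings). Of 18 integrins 2 were higher and 4 lower (11.1% and 22.2%, 0 with the random block, median 0.14, -0.25 to 0.20 in the pairings), with ITGB8 (-0.82) and ITGA1 (-0.42) lower in all 4 pairings. Of 12 cadherins 2 were higher and 1 lower (16.7% and 8.33%, 1 with the random block, median 0.33, 0.05 to 0.50 in the pairings). CDH24 was higher, with 3952 to 5111 with a median of 4461 against 1765 to 2606 with a median of 2293 (1.02 ± 0.12, random block adjusted p = 0.0356). CDH3 was lower (-0.89), and CDH22 was higher (1.48) but not in all 4 pairings, with a call lost without any 1 library of shARID1A/B.4.2 or shARID1B.3 (adjusted p up to 0.0624). Of 22 contractile genes 2 were higher and 1 lower (9.09% and 4.55%, 0 with the random block, median 0.11, -0.15 to 0.46 in the pairings), among them ACTA2 (0.71) and TPM3 (0.38) on the higher side.

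Of 14 tested markers of other cell types 1 was higher and 2 lower (7.14% and 14.3%, 1 with the random block), with a median of -0.22 and -0.78, -0.50, 0.39 and 0.27 in the pairings in the order above. The 22 markers summed to 13775 to 19092 in libraries labelled shARID1A/B, to 28712 to 30770 with the label shARID1B, and to 34172 to 34670.2 for the control. Without COL1A1 it was 11285 to 13274 and 17196 to 19562. COL1A1 (-2.19) and the proteoglycan gene DCN (-1.36 ± 0.14) were the lower markers. CD68, at 47.4 or less, was higher, with a call lost without shARID1A/B.4.2 replicate 1, shARID1B.2 replicate 1 or 3, or shARID1B.3 replicate 3 (adjusted p up to 0.0565). DCN, a gene of fibroblasts that this line also expresses, read 1461, 1438 and 1516 in shARID1A/B.2.3, 1457, 1529 and 1366 in shARID1A/B.4.2, 4709, 4785 and 4617 in shARID1B.2, and 2719.7, 3305 and 2986 in shARID1B.3. SOX10, which defines Schwann cells, was at 0 in all 12 libraries, and the macrophage marker AIF1 and the endothelial marker PECAM1 were at most 0.91 and 2.81. The part of these markers in the results on matrix genes was not tested.

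In the TGF-β and BMP pathway 9 genes were lower and 1 higher of 35 (25.7% and 2.86%, 2 with the random block, median -0.31, and -0.22, -0.20, -0.40 and -0.36 in the 4 pairings). The type I receptor TGFBR1 read 461, 445 and 413 in shARID1A/B.2.3, 967, 874 and 949.7 in shARID1A/B.4.2, 2543, 2415 and 2447 in shARID1B.2, and 1899, 1905 and 1828 in shARID1B.3 (-1.75 ± 0.24, random block adjusted p = 0.0108). The BMP signal transducer SMAD1 had 565, 653 and 594 in shARID1A/B.2.3, 849, 859 and 875 in shARID1A/B.4.2, 1538, 1541 and 1517 in shARID1B.2, and 1519, 1617 and 1527 in shARID1B.3 (-1.10 ± 0.12, 0.0368). The control mean of TGFBR1 was 2539.8, close to shARID1B.2 but above all 3 libraries of shARID1B.3. That of SMAD1 was 1485, close to both shARID1B conditions. The BMP antagonist CHRD was lower at a low level, with 5.06 to 16.2 with a median of 10.8 against 18.9 to 78.7 with a median of 41.4.

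Of 16 Notch genes 6 were higher and 3 lower (37.5% and 18.8%, 1 with the random block, median 0.36, 0.10 to 0.39 in the pairings). The non-canonical ligand DLK1, a marker of immature sympathoadrenal cells, read 5008, 4705 and 4821 in shARID1A/B.2.3, 3891, 3650.0 and 4027 in shARID1A/B.4.2, 820.2, 773 and 863 in shARID1B.2, and 2217, 1724 and 1963 in shARID1B.3 (1.77 ± 0.27, random block adjusted p = 0.0347), and the ligand JAG1 had 106 to 171 with a median of 132 against 42.8 to 68.3 with a median of 54.1 (1.29 ± 0.17). The receptor NOTCH3 (-1.28 ± 0.36) and the feedback inhibitor NRARP (-0.62 ± 0.13) were lower in all 4 pairings. Of 31 WNT genes 7 were lower and 3 higher (22.6% and 9.68%, 0 with the random block, median -0.22, -0.37 to 0.27 in the pairings). AXIN2, a feedback target of β-catenin, had 64.8, 49 and 71 in shARID1A/B.2.3, 76.5, 55.6 and 69.3 in shARID1A/B.4.2, 178, 163 and 189 in shARID1B.2, and 177, 174 and 177 in shARID1B.3 (-1.45 ± 0.12), and the receptor FZD7 had 923 to 1112 with a median of 1017 against 1724 to 1836 with a median of 1813 (-0.82 ± 0.06). Both genes had similar levels in the 2 conditions of a group, and neither was called with the random block (adjusted p = 0.378 and 0.056). The antagonist DKK2 was lower (-1.38), whereas the receptor FZD5 (1.97) and the ligand WNT11 (2.60, at 53.3 or less) were higher.

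Among 14 BCL2 family genes 3 were higher and 2 lower, all in all 4 pairings (21.4% and 14.3%, 0 with the random block, median 0.27, 0.11 to 0.26 in the pairings). The BH3-only genes were split. HRK was higher, while BBC3, which encodes PUMA, had 116, 126 and 95.3 in shARID1A/B.2.3, 104, 114 and 127 in shARID1A/B.4.2, 327, 310.2 and 400.1 in shARID1B.2, and 297, 283 and 275 in shARID1B.3 (-1.46 ± 0.12) and BMF had 1219 to 1612 with a median of 1375 against 2316 to 3100.4 with a median of 2891 (-0.99 ± 0.10). The pore former BAK1 (0.96 ± 0.19) and the anti-apoptotic MCL1 (0.63 ± 0.12) were higher. Their random block adjusted p was 0.0639 and 0.056. Of 21 immediate early genes 5 were lower and 1 higher (23.8% and 4.76%, 0 with the random block, median -0.27, -0.94 to 0.48 in the pairings), the higher gene being the ERK phosphatase DUSP5 with 1053, 1039 and 1068 in shARID1A/B.2.3, 289, 289 and 243 in shARID1A/B.4.2, 140.1, 98.4 and 124 in shARID1B.2, and 198, 201 and 208 in shARID1B.3 (1.78 ± 0.43).

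In some programmes the pairings went in opposite directions and 7 genes of 4 lists passed between the groups. Of 27 ATF4 stress and amino acid genes 1 was higher and 0 lower (3.7% and 0%, 0 with the random block), and the list median of 0.22 ranged from -1.08 to 1.43 over the 4 pairings. Ranges of the pairings also crossed 0 for 21 interferon-stimulated genes (0 higher and 1 lower, 0% and 4.76%, medians of -1.05 to 0.70). They did so for 15 MHC class I presentation genes (1 and 2, 6.67% and 13.3%, -1.39 to 0.30). The same held for 18 hypoxia and glycolysis genes (1 and 1, 5.56% and 5.56%, -0.33 to 0.59). The single calls were CTH (1.04), RSAD2 (-1.05), CALR (0.48) with HLA-B (-1.02) and B2M (-0.43), and HK2 (0.34) with PGK1 (-0.37). None of these calls was made with the random block. That of B2M was lost without any 1 library of shARID1A/B.4.2 or shARID1B.3 or without shARID1B.2 replicate 2 (adjusted p up to 0.0938), and that of PGK1 without any 1 of shARID1A/B.4.2 or without shARID1B.3 replicate 2 or 3 (adjusted p up to 0.0571). The medians of the lists were 0.06 for interferon, -0.26 for MHC class I and 0.20 for hypoxia genes. Cholesterol and fatty acid genes had 8 lower and 1 higher of 34 (23.5% and 2.94%, 0 with the random block), with 7 of the lower genes in all 4 pairings and medians of -0.11 to 0.10. IDI1 (-0.87), HSD17B7 (-0.70) and SC5D (-0.61), which act in sterol synthesis, were lower.

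Of 12 genes that the study discusses as transcripts or proteins, 11 were tested and 3 called (27.3%), near the 25.5% called over all genes. The study compared silenced cells with a control, for some of these genes at the protein level. Here 2 silenced groups are compared with each other, so a gene that did not pass does not bear on the study's result. CCND1, the cyclin of G1, read 13993, 14163 and 13816 in shARID1A/B.2.3, 26111, 28612 and 27159 in shARID1A/B.4.2, 18269.7, 19129 and 19087 in shARID1B.2, and 31460.0, 34505 and 32021 in shARID1B.3 and did not pass (-0.34 ± 0.25, adjusted p = 0.355). The control mean of 39739 was above all 12 libraries. ITGA9 (-0.30 ± 0.15), ILK (0.22 ± 0.08), CDH2 (-0.42 ± 0.29), CDH6 (0.46 ± 0.17), CDH11 (0.38 ± 0.34), NOTCH2 (-0.37 ± 0.25) and DPF2 (-0.38 ± 0.26) did not pass either, with adjusted p of 0.0537 to 0.451, and CDH5 was too low to be tested. ITGB3 (1.17 ± 0.36) and LOXL2 (0.38 ± 0.11) were called higher and SNAI2 (-1.23 ± 0.38) lower, none of them in all 4 pairings. Each call was lost in several fits without a library, namely without any 1 of shARID1A/B.2.3 or shARID1B.3 for ITGB3, without these or shARID1A/B.4.2 replicate 2 for LOXL2, and without any 1 of shARID1A/B.4.2 or shARID1B.2 or replicate 2 or 3 of shARID1B.3 for SNAI2 (adjusted p up to 0.0713, 0.0624 and 0.0657). SNAI2 was lowest in shARID1A/B.4.2, with 527, 557 and 524 in shARID1A/B.2.3, 137, 162 and 148 in shARID1A/B.4.2, 655, 774 and 685 in shARID1B.2, and 517, 718 and 654 in shARID1B.3.

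Against the control, genes lower in the libraries labelled shARID1A/B in all 4 pairings lay mostly farther from the control in these libraries than in those labelled shARID1B. Over these 1575 genes the groups had a median log2 distance from the control of -0.56 (shARID1A/B) and 0.042 (shARID1B), and shARID1A/B had the larger distance for 1175 genes (74.6%). Of the 1461 genes higher in all 4 pairings, the control lay between the groups for 860 (58.9%), and the distances were more even, at 0.37 and -0.23. These distances are descriptions, as they reuse the libraries that chose the genes.

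By class, 1865 of 13750 protein-coding genes were higher and 1931 lower, and of 2147 lncRNA genes 182 (8.48%) were higher and 193 (8.99%) lower. Chromosome 13 had 18 higher and 63 lower of 292 tested genes (6.16% and 21.6%), against 12.6% and 12.9% over the genome, and 52 of its genes were lower in all 4 pairings. Chromosome 18 had 21 higher and 44 lower of 222 (9.46% and 19.8%). SK-N-BE(2) is aneuploid, and a part of copy number in these shares was not tested. Calls leaned with GC content. In the lowest of 5 classes of genes by transcript GC content 348 were higher and 570 lower, and in the highest 529 and 350, with medians of -0.07 and 0.06. With the GC trend removed from each library, an alternative added after seeing the data, 4336 genes were called in all, against 4335. Only 3936 of them were the same genes, so single calls depended on this step. This fit held the 16805 genes with a known GC content.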

How the data were processed

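The series was profiled by poly(A) RNA-Seq (TruSeq Stranded mRNA). STAR 2.5.3a, RSEM 1.3.0, DESeq2 1.26.0 and GRCh38 are listed in the submitters' processing notes. The deposited values are normalised signal, that is, reads that the authors divided by 1 size factor per library. Whole reads were recovered from them, with a largest deviation of 0.0097 read, and used for depth and for count tests as alternatives. RSEM divides reads between similar copies, so HNRNPA1 and histone values are uncertain. Further deposited tables hold the authors' fold changes and p-values against the control and were not used.

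Groups followed the labels. Genes with enough reads (edgeR 4.0.16 filterByExpr) were tested with limma 3.58.1 (with trend) on log2(value + 1), 6 libraries against 6, with Benjamini-Hochberg adjustment over 16999 genes, so that fold changes of low genes are understated. A fit of 4 conditions gave the 4 pairings, and a fit with the condition as a random block used 1 estimated correlation of 0.94 for all genes. All tests were two-sided. Libraries within a condition share their shRNAs, and p-values between 6 and 6 libraries do not cover the choice of shRNA. The script was tested on simulated data. These had no spread between the conditions of a group, so the test does not cover false calls that come from such spread. Members, gene lists and naming rule were chosen with earlier results of these data known. Named were ARID1A and ARID1B, the 12 largest differences per direction among genes called in all 4 pairings without overlap and with a mean of at least 50, up to 3 called members per list and direction, and genes the study names. ATM, ATR, AURKA, BRCA2, BUB1, BUB1B, CDC6, CDCA8, CDK1, CDT1, CENPA, CHEK1, COL4A1, LIG1, MCM2, MCM3, MCM6, MKI67, NDC80, PCNA, PLK1, RRM1, RRM2, SMARCE1 and TTK were named after their values were seen. Alternatives changed the tool, scaling, pseudocount, filter, blocking and the libraries used. The shRNA sequences are not shown, and some results are not reported here.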

Additional observations from a re-analysis of the deposited data

Results flagged for a closer look

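Outlying libraries were sought among the 6 of each group for every named gene, as the highest or lowest library standing far from the other 5. Of 344 gene and group combinations, 6 stood out. A chance rate of about 1 in 20 would hold only for 6 libraries of 1 kind. Here 2 conditions of 3 libraries are joined, and where these differ a single library can hardly stand out. Few flags therefore do not show that outlying libraries are absent. In the group labelled shARID1A/B, CDH3 was 22.4 in shARID1A/B.2.3 replicate 3 and 13.1 to 15.5 in the others, CHRNB4 was 1830.0 in shARID1A/B.4.2 replicate 1 and 1703 to 1740 in the others, and EGR2 was 10.9 in shARID1A/B.4.2 replicate 1 and 17.2 to 19.7 in the others. In the group labelled shARID1B, LAMA4 was 188 in shARID1B.2 replicate 2 and 216 to 231 in the others, ACTA2 was 722 in shARID1B.3 replicate 1 and 919 to 1003 in the others, and SMAD1 was 1617 in shARID1B.3 replicate 2 and 1517 to 1541 in the others. For CDH3 this library lay above 19.9, the lowest value in the libraries labelled shARID1B, so the groups overlapped. In the other 5 genes the library lay on the side away from the other group.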

How the results depend on the processing

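The number of genes called between the groups, 4335, was 12595 with the 4 conditions averaged, since the spread is then taken between libraries of a condition, and 259 with the condition as a random block. From 1 pairing alone it was 13007 (shARID1A/B.2.3 against shARID1B.2), 12702 (shARID1A/B.2.3 against shARID1B.3), 11918 (shARID1A/B.4.2 against shARID1B.2) and 12516 (shARID1A/B.4.2 against shARID1B.3). For the 916 genes at 2-fold or more the random block gave 166 and the pairings 2988, 3279, 1976 and 2810. Without 1 library at a time there were 3640 to 4188 calls, 798 to 979 at 2-fold, 2889 to 3007 in all 4 pairings, 12839 to 13362 between the conditions labelled shARID1A/B and 11362 to 11967 between those labelled shARID1B. Other tools, scalings, pseudocounts and filters gave 3662 (no filter on low values) to 5273 (DESeq2) calls. ARID1A and ARID1B were called in the same direction under all 30 alternatives. Some named genes changed direction in single pairings. With shARID1A/B.2.3 and shARID1B.2 alone the difference was 0.0387 for B2M, -0.14 for H2BC5, 0.59 for CDH2, -0.62 for CDH11, 0.38 for NOTCH2 and 0.37 for DPF2, and with shARID1B.3 in its place 0.0204 for NOTCH2 and 0.11 for DPF2. With shARID1A/B.4.2 and shARID1B.2 it was 0.53 for CCND1 and -0.22 for CDH11, and with shARID1A/B.4.2 and shARID1B.3 -0.17 for FOSL1 and 0.0415 for ITGA9. The medians of the laminin, channel, cholesterol and histone lists changed sign under alternatives of scaling, among which the count tests of edgeR and DESeq2 were included. These count tests also estimate the difference in another way. Scaling to total reads by itself shifted all genes by 0.028 in log2, and edgeR TMM by -0.00058. The cause was not tested. Replicate numbers are shared in the labels but same-numbered libraries did not deviate together (correlation -0.11 to 0.14, over 0.1 in 2 of 12 pairs of libraries). With a replicate block 3176 genes were called between the groups and 3041 in all 4 pairings. Each group rests on 2 shRNA sets that differ among themselves, and the transcripts of ARID1A and ARID1B went against the labels. Low genes are limited by depth.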
